A study of Mus musculus with 30 samples.

Results

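Blood mononuclear cells of mice given oleic acid were compared between the next day and the first hours after the injection. The arrays were chosen by the treatment and time in their labels: 6 arrays taken 18 h or 24 h after oleic acid (late) and 6 taken 1 h or 1.5 h after it (early), 12 of the 30 arrays of the series. Each of the 4 times had 3 arrays. A gene was measured if its probe was well above the local background on at least 3 of the 12 arrays, and 20222 genes were.

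The series followed blood cells during acute lung injury in female C57BL/6 mice aged 6 weeks. Under xylazine and ketamine, 200 µl were injected into the tail vein, holding oleic acid at 1.2 µl per g of body weight or physiological serum alone. Blood was drawn by exsanguination at the stated time, the cells were isolated on a Ficoll gradient of density 1.084, and 200 ng of RNA were labelled with Cy3 for 1-colour Agilent arrays. The design text counts 30 mice for the 30 arrays, so replicates were taken as separate mice, from that text alone. Its count of oleic acid mice at 4 h, a time outside the comparison, is higher than the number of arrays there. Physiological serum arrays at the same times (6 early, 4 late) give the background of time and handling. Hours since anaesthesia move with the time after injection in both treatments and cannot be told apart from it, and the hour of the day at sampling was not used here.

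Oleic acid, a fatty acid that injures the endothelium of lung capillaries, is a standard means of producing acute lung injury in animals. Circulating leukocytes answer such an injury within hours: immediate early transcription factors and cytokine messages appear first, neutrophils and monocytes enter and leave the blood, and interferon-stimulated genes follow type I interferon. Blood leukocytes also follow a daily rhythm, through the molecular clock and through glucocorticoid hormone, which alters both their gene expression and their number in blood.

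The arrays of both sides were of like quality. The 75th percentile of the processed signal ran from 55.9 to 152 early and from 51.6 to 151 late, and between 35.4% and 52.7% of probes early and between 39.7% and 49.2% late were well above background. Pairwise correlations over the measured genes lay between 0.857 and 0.984. The lowest median correlation with the other arrays was 0.907, for the third array at 18 h. All 17 T cell markers and all 15 B cell markers were above background on all 12 arrays, and so were all 16 neutrophil, 14 of 15 platelet and 15 of 16 erythroid markers measured, which belong to cells outside the mononuclear fraction. The arrays lay on 5 slides, and the fifth, which held 2 early and 2 late arrays, was scanned on a day of its own. Of the 12 arrays, those on slide 1 were all early and those on slide 2 all late. On these slides the side cannot be told apart from the slide. The estimated correlation between arrays of the same slide was 0.37.

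Levels are log2 processed signals minus the array's own 75th percentile, so 0 is the level of that percentile and a difference of 1 is a 2-fold ratio. No gene passed the test between late and early arrays at an adjusted p of 0.05 (0 of 20222 genes each way, 0%; limma with Benjamini-Hochberg adjustment). At an unadjusted p under 0.05 there were 1466 genes (7.25%), 631 higher late (3.12%) and 835 lower late (4.13%), and the lowest adjusted p was 0.0733. In 69 genes (0.341%) all 6 late arrays lay above all 6 early ones, and in 81 (0.401%) all lay below, 150 in all (0.742%). A 2-fold difference or more was seen in 434 genes (2.15%). The median difference over all genes was 0.00, with 50.5% of genes above 0. The count of passing genes depended on the analysis, with up to 9 under other settings, led by Tardbp, which passed in 9 of 31 tested alternatives. All differences below are therefore given as values, and none as a change that passed.

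The largest step relative to its error was in Tardbp, which encodes the RNA-binding protein TDP-43, a regulator of splicing. On the 6 early arrays its level ran from 2.36 through a median of 2.76 to 3.36, and on the 6 late arrays from 3.75 through 3.93 to 4.04. The sides did not overlap, and the late arrays were tighter (SD 0.10, n = 6, against 0.44). The difference was 1.12 (SE 0.13, adjusted p = 0.0733 by limma), a ratio of 2.17, and within the 3 slides that held both sides it was 1.68 and 1.25 on slides 3 and 4, with 1 early and 1 late array each, and 0.66 on slide 5, with 2 of each. The level did not climb steadily: the mean of 3 arrays was 3.19 (SD 0.17) at 1 h, 2.42 (SD 0.08) at 1.5 h and 1.65 (SD 0.38) at 3 h, then 3.89 (SD 0.12) at 18 h. This value comes from the brightest of 3 probes of the gene. The other 2, each well above background on 5 or 6 arrays of a side, stood lower late by 0.34 and 0.30 (unadjusted p = 0.0722 and 0.369), so the probes disagree in sign.

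**Figure D1:**
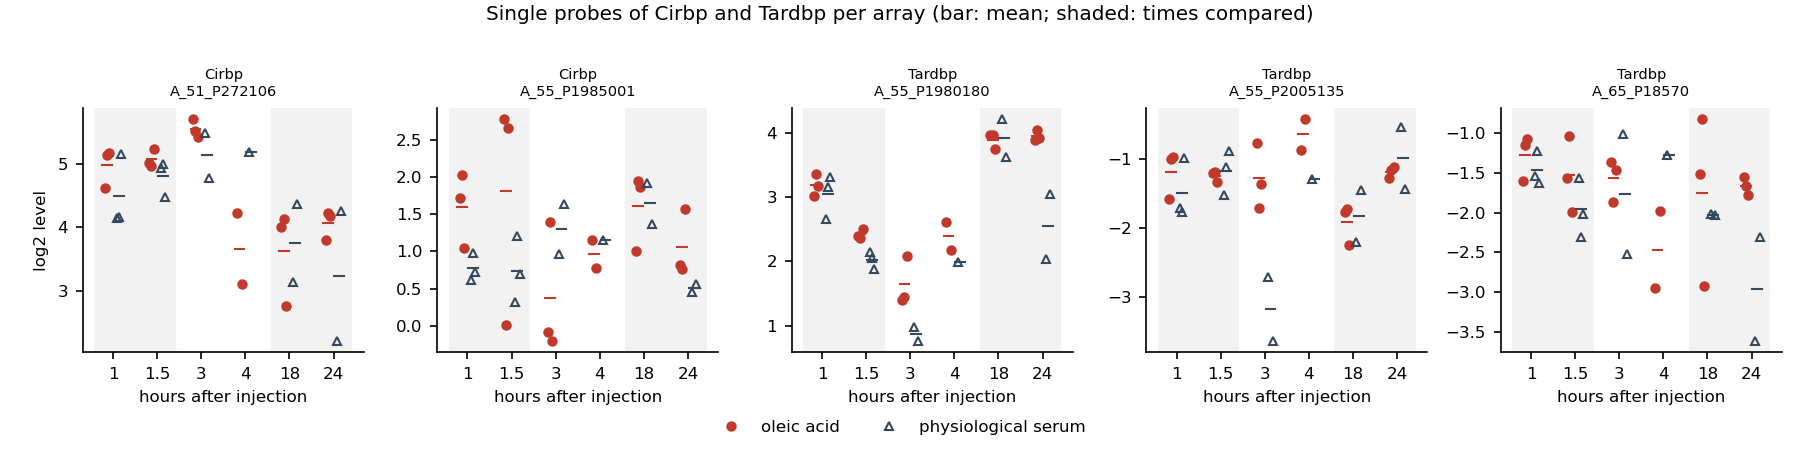
Log2 level (y) of each probe of Cirbp and Tardbp on every array against hours after injection (x); filled circles are oleic acid, open triangles physiological serum, bars are group means and shading marks the times compared. The brightest Tardbp probe separates the early from the late oleic acid arrays, whereas the other 2 do not.

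Other genes with the smallest p on the higher side include lymphocyte genes. Tbx21 encodes T-bet, the transcription factor of NK cells and of type 1 T helper cells. Its level ran from 0.29 through 0.92 to 1.48 early and from 1.65 through 2.14 to 2.62 late, without overlap, a difference of 1.23 (SE 0.21, adjusted p = 0.179). Gpr183, the oxysterol receptor that guides B and T cells within lymphoid tissue, ran from -0.32 through 0.24 to 0.49 early and from 0.91 through 1.38 to 1.79 late, a difference of 1.19 (SE 0.19, adjusted p = 0.132). Art2b, an ADP-ribosyltransferase of the T cell surface, stood higher by 1.98 (SE 0.30, adjusted p = 0.117) but was well above background on only 1 early array and 5 late ones. The remaining genes of the 10 named symbols with the smallest p on this side were Zfp607a (1.23), Cdh22 (1.06), Rbm12b2 (1.23), Calhm2 (0.84), Cnga1 (1.84) and Kifbp (0.89), all without overlap except Cnga1. Cdh22, like Art2b, was well above background on only 1 early array and 5 late ones. Transcripts that the array lists by position without a gene symbol are left out of that ranking. One on chromosome 17 stood higher late by 1.59 (adjusted p = 0.0733), without overlap and well above background on all 12 arrays, and passed in 6 of the alternatives. Another, on chromosome 1, was well above background on 0 early and 3 late arrays and stood at least 1.48-fold higher late, against the lowest signal well above background.

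On the lower side, Il20rb, a receptor subunit for the cytokines IL-19, IL-20 and IL-24, ran from -1.54 through -0.93 to -0.75 early and from -3.13 through -2.59 to -2.22 late. All late arrays lay below all early ones, by 1.62 on average (difference -1.62, SE 0.21, adjusted p = 0.0733). Arrdc4, an arrestin-domain protein whose transcription follows glucose through MondoA, ran from 0.62 through 1.13 to 1.67 early and from -0.90 through -0.24 to 0.02 late, again without overlap (difference -1.52, SE 0.21, adjusted p = 0.0840). Clec7a, the beta-glucan receptor Dectin-1 of myeloid cells, was among the brighter genes of this set, at 5.09 to 6.16 early (median 5.53) and 3.43 to 5.07 late (median 4.20), a difference of -1.39 (SE 0.27, adjusted p = 0.248). Tirap, an adaptor of Toll-like receptors 2 and 4, differed by -0.70, and Jchain, which joins the chains of secreted IgM and IgA and marks plasma cells, by -1.64, both without overlap. Fbxl5 (-1.14), an iron-sensing ubiquitin ligase subunit, and Mir22hg (-0.99) did not overlap either, whereas Col5a3 (-1.23) and Mgst1 (-0.80) did.

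**Figure D2:**
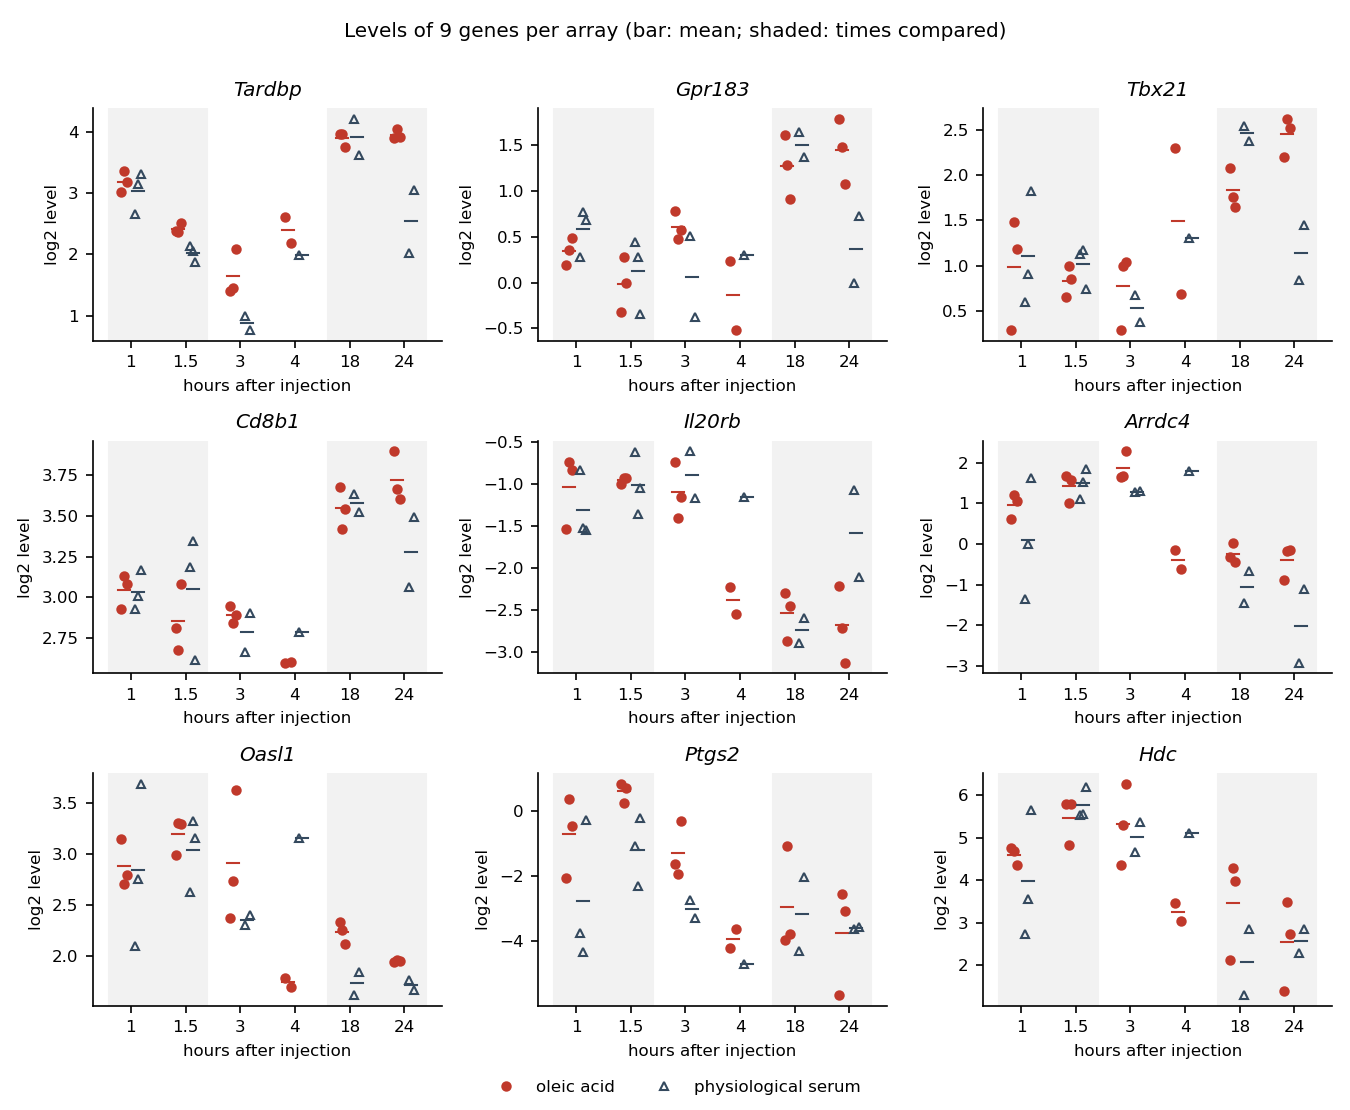
Log2 level (y) of 9 genes on every array against hours after injection (x); filled circles are oleic acid, open triangles physiological serum, bars are group means and shading marks the times compared. In Tardbp, Gpr183, Tbx21 and Cd8b1 all late oleic acid arrays lie above the early ones, in Il20rb, Arrdc4, Oasl1 and Hdc all lie below, and Ptgs2 overlaps.

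Markers of neutrophils stood lower late. Of 16 measured members 15 had a difference below 0, with a median of -0.83 beside 0.00 over all genes; 6 were lower and 0 higher at an unadjusted p under 0.05, and 2 lay wholly below. Those 2 were Hdc, the histamine-forming enzyme, and Il1r2, the decoy receptor for interleukin-1. Hdc ran from 4.36 through 4.80 to 5.79 early and from 1.39 through 3.12 to 4.30 late (difference -2.03, SE 0.44, adjusted p = 0.310). Il1r2 ran from 2.55 through 2.75 to 3.66 early and from -1.88 through 0.68 to 2.34 late (difference -2.48, SE 0.58, adjusted p = 0.369). Late arrays spread widely, with list means from 2.32 to 4.91 against 4.11 to 5.37 early. The median depended on the fifth slide: it was -0.27 without that slide, and 0.32, -0.38 and -2.15 within the 3 slides. After physiological serum 16 of 16 members were below 0, with a median of -1.41 beside -0.10 over all genes. In bulk cells, fewer neutrophils and less RNA per neutrophil cannot be told apart.

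Markers of NK and cytotoxic cells stood higher late: 14 of 15 members were above 0 (median 0.45), 5 at an unadjusted p under 0.05, and Tbx21 and Nkg7, a granule protein of cytotoxic lymphocytes, lay wholly above. Nkg7 was 5.80 ± 0.18 early and 6.36 ± 0.19 late (SD, n = 6 each), and was singled out after its values were seen. Klre1, an NK cell lectin-like receptor, ran from -0.61 to 0.64 early and from 0.54 to 1.62 late (difference 1.11, SE 0.27, adjusted p = 0.400), and the sides overlapped by a small margin. The list's median was above 0 under all 34 other settings, from 0.14 to 0.78. Of 17 T cell markers 14 were above 0 (median 0.20), but only Cd8b1, the beta chain of the CD8 co-receptor, lay wholly above: 2.67 through 3.00 to 3.13 early against 3.42 through 3.64 to 3.90 late (difference 0.68, SE 0.14, adjusted p = 0.271). The T cell median was -0.87 within slide 4 and turned below 0 without the 24 h arrays.

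Patrolling monocyte markers were above 0 in 11 of 12 members (median 0.44, 2 at an unadjusted p under 0.05). Cd300e, an activating receptor of these monocytes, ran from 0.56 through 0.73 to 1.26 early and from 0.92 through 1.79 to 2.68 late (difference 0.93, SE 0.35, adjusted p = 0.600). Cx3cr1, the fractalkine receptor that marks them, differed by 0.50 (SE 0.20, adjusted p = 0.646). Both overlapped between sides. Classical monocyte markers were split (6 of 11 above 0, median 0.12). Other cell types lay nearer 0: B cell markers had a median of -0.04, dendritic cell -0.06 with Ccr9, a gut-homing chemokine receptor, at 0.73 (SE 0.15, adjusted p = 0.288), lymphocyte homing 0.12, immature neutrophil granule -0.26, basophil 0.06 and MHC class II -0.15, the last below 0 in 10 of 10 members. The dendritic cell and basophil medians changed sign in 9 and 11 of 34 other settings, normexp background correction among them for both. Platelet markers had a median of -0.20 and erythroid markers 0.41, neither with a member at an unadjusted p under 0.05, and the erythroid median was -0.23 without the 1.5 h arrays. The platelet median turned above 0 without the second 1 h array or the second 1.5 h array (0.02 each) and was 0.25 without the 1.5 h arrays and 0.08 within slide 5.

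Inflammatory messages stood lower late as a group. All 13 measured cytokine and chemokine genes had a difference below 0 (median -0.69), 8 at an unadjusted p under 0.05. Ptgs2, the inducible cyclooxygenase of prostaglandin synthesis, had the largest fitted difference of them. It ran from -2.07 through 0.30 to 0.82 early and from -5.66 through -3.42 to -1.09 late (difference -3.28, SE 0.67, adjusted p = 0.271), overlapping through 1 late array, and only 2 late arrays were well above background against 5 early. Il1b, the interleukin-1 beta precursor, named after its value was seen, differed by -2.03 (SE 0.59, adjusted p = 0.449), and Vegfa, the vascular growth factor, by -1.61 (SE 0.40, adjusted p = 0.404) without overlap, well above background on 5 early arrays and 1 late one. The list's median was -0.93, -0.89 and -1.06 within the 3 slides and -0.33 without slide 5. The neutrophil markers stood lower on the same arrays (median -0.83), and their part in this difference was not tested. Immediate early genes were below 0 in 14 of 19 members (median -0.46, 6 at an unadjusted p under 0.05), led by Egr1, a growth-response transcription factor, at 0.21 to 4.06 early (median 3.40) and -1.29 to 2.73 late (median 0.30), a difference of -2.37 (SE 0.71, adjusted p = 0.455). NF-kB targets and brakes were below 0 in 14 of 16 (median -0.28), with Tnfaip2 at -1.19 and Birc3 at -0.77. A second, dimmer Birc3 probe stood higher late by 0.22. The NF-kB median ran from -0.77 to -0.02 under the 34 other settings. Mean levels at 1, 1.5, 18 and 24 h were 2.31, 2.73, 2.22 and 2.26 for this list. They were 2.14, 2.66, 1.96 and 1.87 for immediate early genes and -0.52, 0.34, -0.90 and -1.46 for cytokine and chemokine genes. The NF-kB and immediate early means at 1 h thus lay nearer the late means than the 1.5 h mean. The medians of these lists were below 0 after physiological serum as well, beside a median of -0.10 over all genes. Of all genes 61.5% were below 0 after serum. Serum medians were -0.66 for cytokine and chemokine genes (12 of 13 below 0) and -0.41 for immediate early genes (16 of 19). That of NF-kB targets and brakes was -0.31, with 10 of 16 below 0, a share near that of all genes.

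**Figure D3:**
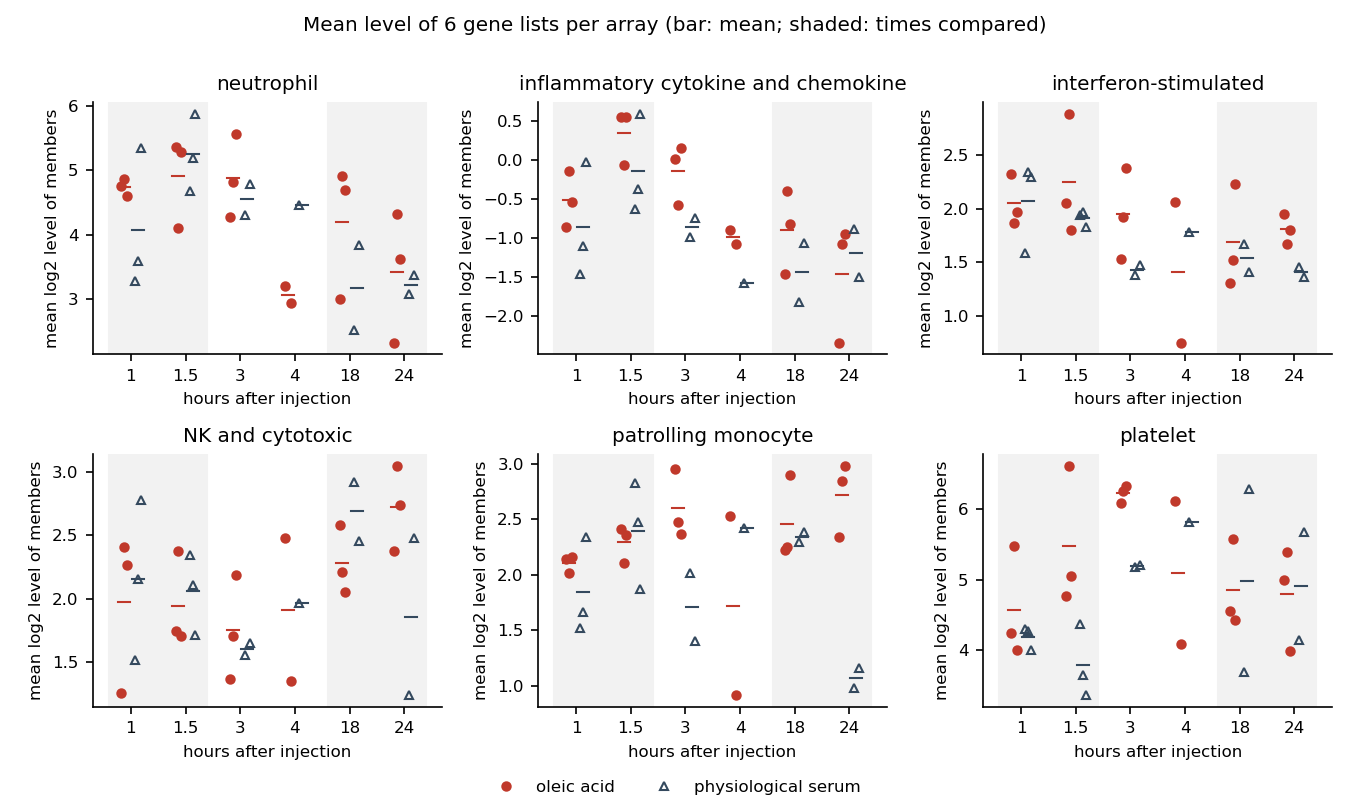
Mean log2 level of the members (y) of 6 gene lists on every array against hours after injection (x); filled circles are oleic acid, open triangles physiological serum, bars are group means and shading marks the times compared. Neutrophil means reach from 2.32 to 4.91 on the late oleic acid arrays, and patrolling monocyte means of the 24 h serum arrays lie below all oleic acid arrays of the compared times.

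Interferon-stimulated genes were unequal. Of 20 members 16 were below 0 (median -0.32), 7 at an unadjusted p under 0.05, and Oasl1, Ifit3 and Ifih1 lay wholly below. Oasl1, a relative of the oligoadenylate synthetases, ran from 2.71 through 3.07 to 3.30 early and from 1.93 through 2.04 to 2.33 late (difference -0.95, SE 0.14, adjusted p = 0.117). Ifit3, which binds with Ifit1 to viral RNA, ran from 1.94 through 2.67 to 4.19 early and from 1.05 through 1.29 to 1.66 late (difference -1.45, SE 0.30, adjusted p = 0.274). Isg15, a ubiquitin-like modifier, and Rsad2, the antiviral enzyme viperin, were instead 6.61 ± 1.09 and 6.31 ± 1.17 early and 7.10 ± 1.44 and 6.70 ± 1.44 late (SD, n = 6 each). Their differences of 0.49 and 0.39 had errors of 0.60 each and turned below 0 without the third 18 h array or without the 1.5 h arrays. Ifih1, Isg15 and Rsad2 were singled out after their values were seen. The list's median was 0.24 within slide 4, the slide of that 18 h array.

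These differences were set beside the promoters, taken as 250 bases before to 50 after the start of each gene. RefSeq promoters (GRCm38.p6) were matched for 15 of the 20 genes. The interferon-stimulated response element, searched as GAAA, any 2 bases and GAAA on both strands with overlapping matches kept, occurred in 10 of the 15 and in 3.44% of 32851 promoters; this search was added after the other motifs had been chosen. It occurred in Ifit3, which stood lower late, and in Isg15 and Rsad2, which did not, but it was absent from the window of Oasl1, which stood lower too. The sequences of Ifit3 (chr19:34583353-34583436, plus strand), Isg15 (chr4:156200855-156200916, minus strand) and Rsad2 (chr12:26456543-26456592, minus strand) are shown to set those 3 genes side by side, 5′ to 3′ on the gene's strand, with the matches in capitals.
Ifit3: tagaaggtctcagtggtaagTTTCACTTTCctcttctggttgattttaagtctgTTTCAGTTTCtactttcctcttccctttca
Isg15: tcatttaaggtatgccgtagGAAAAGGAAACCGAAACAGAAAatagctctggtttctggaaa
Rsad2: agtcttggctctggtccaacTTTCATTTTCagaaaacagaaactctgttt
The match is a description of these letters only.

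Clock and glucocorticoid genes also stood lower. Of 14 measured clock genes 10 were below 0 (median -0.18, 4 at an unadjusted p under 0.05), and of 15 glucocorticoid-responsive genes 12 (median -0.29, 4 lower and 1 higher). These counts are not separate, since Per1 and Nfil3 belong to both lists. Il1r2 belongs to the glucocorticoid and the neutrophil list. Per1, a core clock repressor that glucocorticoids also induce, ran from 3.46 through 4.22 to 5.10 early and from 3.09 through 3.32 to 3.93 late (difference -0.84, SE 0.25, adjusted p = 0.453), overlapping. Nfil3, a repressor of clock output genes, ran from 1.41 through 1.87 to 2.51 early and from 0.87 through 1.22 to 1.39 late, without overlap (difference -0.68, SE 0.17, adjusted p = 0.404). Nr1d1, the repressor REV-ERB alpha, named after its value was seen, differed by -0.93 (SE 0.34, adjusted p = 0.589) and was dim. Among clock genes with a RefSeq promoter (11), the E-box CACGTG occurred in 3 (7.15% of all promoters), and CRE TGACGTCA and D-box TTANGTAA in 0 (1.79% and 2.32%), both strands searched. The E-box is palindromic, and that of Per1 (chr11:69098763-69098808, plus strand) is shown in capitals since Per1 had the smallest p of the 3 genes.
Per1: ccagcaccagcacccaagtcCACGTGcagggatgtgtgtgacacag

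RNA-binding proteins of the cold response stood lower late. Cirbp, the cold-inducible RNA-binding protein, whose message follows body temperature, ran from 4.62 through 5.08 to 5.23 early and from 2.77 through 4.07 to 4.22 late, without overlap (difference -1.17, SE 0.24, adjusted p = 0.274). A second, dimmer Cirbp probe overlapped (-0.38, SE 0.46). Rbm3, its close relative, named after its value was seen, was 5.63 ± 0.29 early and 4.78 ± 0.49 late (SD, n = 6 each; difference -0.86, adjusted p = 0.430). Of the 12 genes of this list 7 were below 0 (median -0.32). Heat shock chaperones were above 0 in 9 of 12 (median 0.31), and Chordc1, an HSP90 co-chaperone, lay wholly above at 1.92 to 2.09 late against 1.36 to 1.79 early (difference 0.47, SE 0.14, adjusted p = 0.458).

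Genes of fatty acid handling, the agent being a fatty acid, lay near 0 as groups. PPAR and fatty acid oxidation genes had a median of 0.03 (11 of 18 above 0, 0 at an unadjusted p under 0.05), and sterol and fatty acid synthesis genes of 0.01 (9 of 18 above 0). The first median turned below 0 in 7 of 34 other settings, among them normexp background correction. The second did so in 12, among them the deposited log2 table. The cytosolic ribosomal protein median did so in 14, among them both of these and quantile normalization. Srebf1, the transcription factor of fatty acid synthesis, ran from -3.37 through -2.96 to -2.39 early and from -2.44 through -1.86 to -1.36 late (difference 1.01, SE 0.22, adjusted p = 0.308), overlapping by a small margin and well above background on 2 early and 5 late arrays. Insig1, which holds back the SREBP proteins, differed the other way, by -0.97 (SE 0.36, adjusted p = 0.595). The ion pump, fatty acid receptor and eicosanoid list had a median of -0.14. Hypoxia and glycolysis genes were below 0 in 17 of 19 (median -0.19), with Adm, the vasodilator adrenomedullin, at -0.80. The remaining lists had these medians: Fc gamma receptor and complement -0.34, adhesion and chemoattractant receptor -0.20, unfolded protein response -0.13, pattern recognition and inflammasome -0.09, NRF2 target -0.06, cell cycle -0.05, proteasome -0.08, oxidative phosphorylation -0.02, cytosolic ribosomal protein 0.00 and lung epithelium and endothelium -0.25, of which 6 of 12 genes were measured. Without the 1.5 h arrays the adhesion, pattern recognition, proteasome and lung medians turned above 0.

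Mice given physiological serum showed the same direction at most of these genes. These arrays are shared by no oleic acid group. Of the 1466 genes at an unadjusted p under 0.05 after oleic acid, 1205 (82.2%) had the same sign after serum, against 58.0% of all genes, and of the 150 genes whose oleic acid arrays did not overlap 141 (94.0%) did. Only 38.5% of all genes were above 0 after serum (median -0.10), a figure that was 55.1% (median 0.05) without the first serum array at 24 h. With each of the 4 late serum arrays left out in turn, an alternative chosen after seeing the data, between 74.3% and 83.2% of the 1466 genes had the same sign, against 53.8% to 61.8% of all genes, and so did 129 to 143 of the 150. Differences after serum were 0.70 for Tardbp, 1.47 for Art2b, -1.01 for Il20rb, -2.34 for Arrdc4, -1.22 for Oasl1, -2.55 for Hdc, -2.54 for Il1r2 and -1.15 for Cirbp. The Tardbp value joins unlike times. Its serum mean was 3.91 at 18 h but 2.54 at 24 h (2 arrays each), against 3.04 at 1 h and 2.02 at 1.5 h (3 arrays each).

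**Figure D4:**
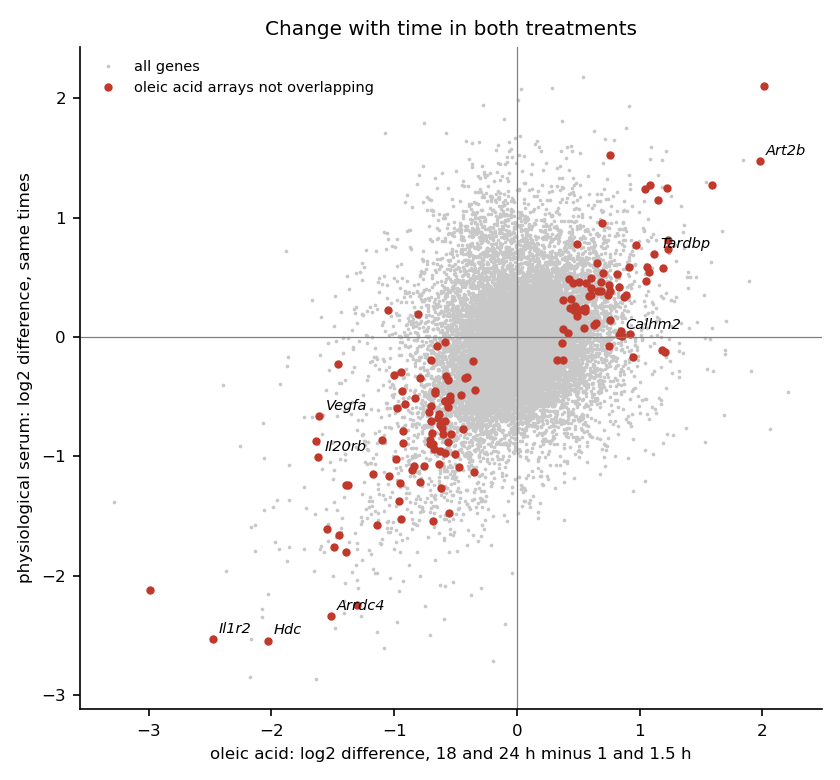
Log2 difference between late and early arrays for every gene after oleic acid (x) and after physiological serum (y); coloured points are the 150 genes whose oleic acid arrays do not overlap. Of these, 141 lie in the quadrants where both treatments have the same sign.

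The test of the difference between treatments passed for 0 of 20221 genes (0% each way; 526 at an unadjusted p under 0.05, 2.6%, of which 1.51% higher and 1.09% lower; lowest adjusted p 1.00). The symbols with the smallest p were, on the side higher in oleic acid, Katnal1 (1.45), Cd68 (1.23), Tubb6 (1.82), Celsr3 (1.77) and Apoc2 (1.48), and on the lower side Slc22a23 (-2.22), Pola2 (-1.60), Fyttd1 (-1.44), Gucy2c (-1.60) and Zfp94 (-1.04). A dimmer Cd68 probe differed by -0.18 after oleic acid and -0.29 after serum, against 0.26 and -0.98 for the probe used. Dimmer Katnal1 probes differed by 0.44 and -0.04, and by 0.59 and 0.33, against 0.57 and -0.88. Pola2 was well above background on 2 early and 3 late oleic acid arrays, Fyttd1 on 4 and 0, and Gucy2c on 5 and 1. Slc22a23 was so on 4 and 5, and Zfp94 on 5 and 6. By list, patrolling monocyte markers had a median of 0.44 after oleic acid and -0.54 after serum, and 6 of 12 had an unadjusted p under 0.05 for the difference. Without 1 late serum array at a time the patrolling monocyte median after serum was -0.63 to -0.46. Classical monocyte markers differed in sign too (0.12 and -0.58), with 3 of 11 at an unadjusted p under 0.05 for the difference. So did several further lists, among them immature neutrophil granule (-0.26 and 0.24) and lung epithelium and endothelium (-0.25 and 0.34). Of their members 0 of 9 and 1 of 6 had an unadjusted p under 0.05 for the difference. Lung list means after serum were 2.68 and 2.38 at 24 h, against 0.68 and 1.15 at 18 h. Early serum group means were 1.13 at 1 h and 1.21 at 1.5 h. Heat shock chaperones (0.31 after oleic acid) lay near 0 after serum, at -0.03 with 6 of 12 members above 0. For the difference 1 of the 12 had an unadjusted p under 0.05. Platelet markers had a median of -0.20 after oleic acid, which turned above 0 as given with those markers, and 1.06 after serum, with 15 of 15 above 0. The serum platelet value rested on a pair of the 4 late arrays: list means were 3.69 and 6.29 at 18 h and 4.15 and 5.67 at 24 h, against 3.36 to 4.37 on the 6 early serum arrays, and the median was 0.35 without the second 18 h array. The first serum array at 24 h stood apart in several lists: its T cell mean was 2.95 against 4.39 on the second, its B cell mean 2.21 against 3.72, and its intergenic signal of -1.86 was the highest of the 30 arrays. In patrolling monocyte markers both 24 h arrays were low, at 0.98 and 1.16 against 2.30 and 2.39 at 18 h, and Cx3cr1 was -0.42 and 1.27 against 2.99 and 3.24. The part of these arrays' quality in the serum values was not tested. Slides were shared unevenly between the treatments. No serum array lay on slide 5, and both 24 h serum arrays lay on slide 1, which held no late oleic acid array. With slide as a fixed block the difference between treatments again passed for 0 genes, but the part of slide in these list values was not tested. The serum contrast itself passed for 8 genes (1 higher, 0.00495%, and 7 lower, 0.0346%; 7.68% at an unadjusted p under 0.05, 2.46% higher and 5.22% lower; 38.5% of genes above 0), a count that ran from 1 to 807 as single arrays were left out, the highest without the second serum array at 24 h.

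**Figure D5:**
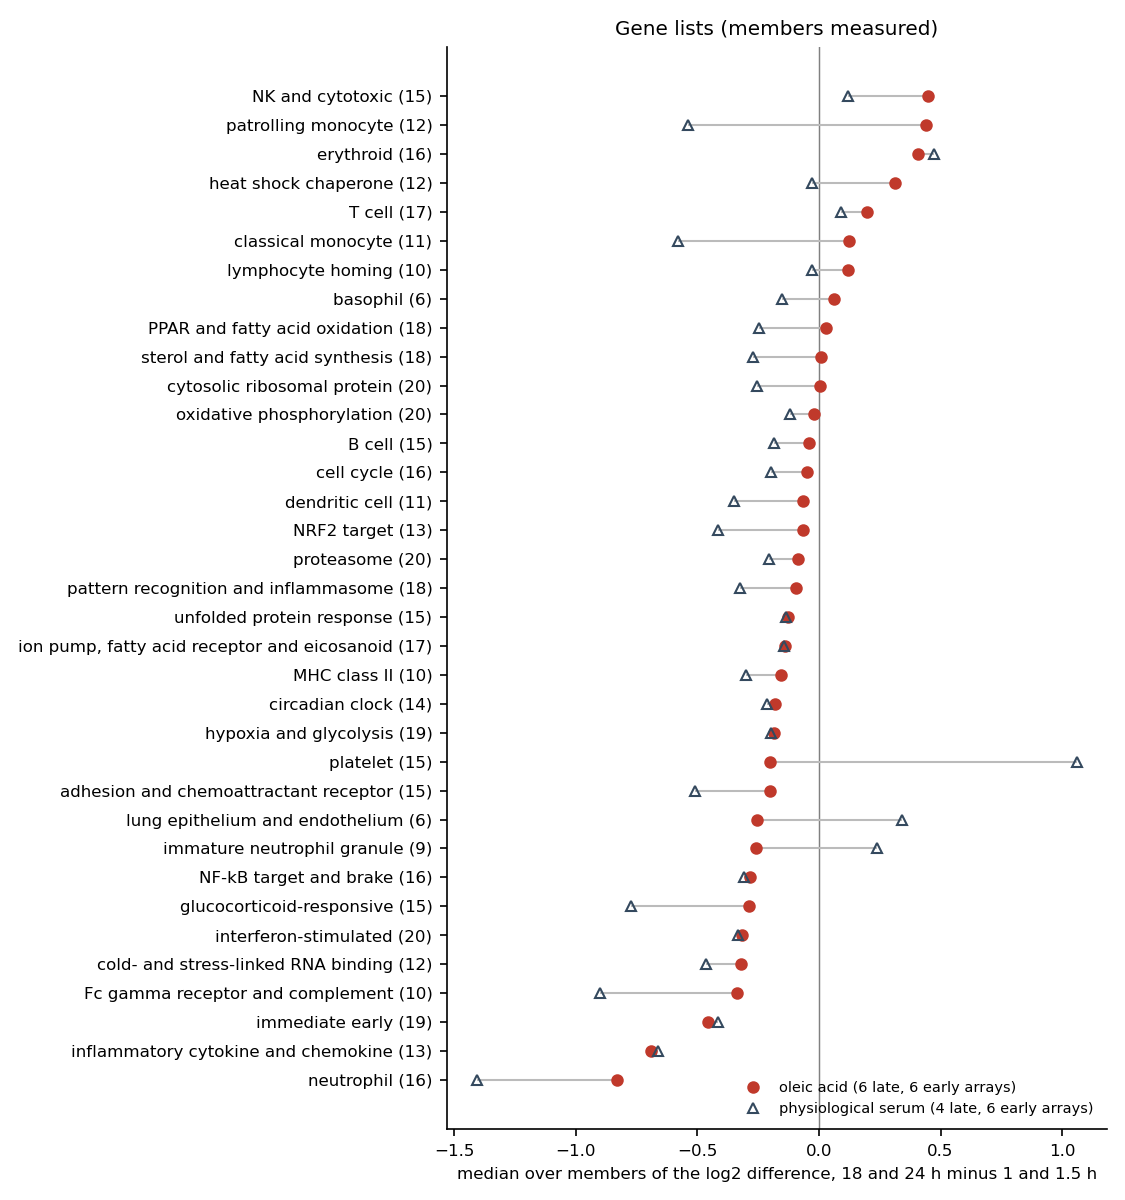
Median over the measured members (count in brackets) of the log2 difference between late and early arrays for 35 gene lists; filled circles are oleic acid and open triangles physiological serum. Neutrophil, inflammatory and immediate early lists lie lowest after oleic acid. The medians of several lists differ in sign between the treatments, among them patrolling monocyte, classical monocyte, platelet and immature neutrophil granule. That of platelets after oleic acid (-0.20) is above 0 without the second 1 h or the second 1.5 h array (0.02).

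Within each side no gene passed either. Between 24 h and 18 h, 0 of 20222 genes passed (0%; 470 at an unadjusted p under 0.05, 2.32%, of which 1.47% of genes higher and 0.851% lower; lowest adjusted p 0.930). The smallest p values belonged to dim genes: Folr2 (1.60), Rad51ap1 (1.41) and Kremen2 (1.56) higher at 24 h and Lce1c (-1.85), Sohlh1 (-1.94) and H1f1 (-1.33) lower. Between 1.5 h and 1 h, 0 genes passed (0%; 1431 at an unadjusted p under 0.05, 7.08%, of which 4.11% higher and 2.97% lower; lowest adjusted p 0.268). Higher at 1.5 h were Spg20 (1.72, SE 0.23), Ccl2 (2.42, SE 0.39), the chemokine that draws monocytes, and Dusp5 (1.45, SE 0.27), a phosphatase of ERK signalling. Lower were Tardbp (-0.77, SE 0.19), H2bu2 (-1.37) and Psme3 (-1.37). The mean of Ccl2 was -1.89 (SD 0.90) 1 h after injection and 0.52 (SD 0.24) after 1.5 h, then -1.09 (SD 0.24) after 18 h and -1.66 (SD 0.27) after 24 h, with 3 arrays each, so its 1 h arrays lay near the late ones and only the 1.5 h arrays stood above.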

How the data were processed

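Deposited scanner files of 30 1-colour Agilent arrays were read; per the file headers and the submitters' processing notes they were made by the authors with Agilent Feature Extraction 10.5.1.1, and hold intensity values (processed signal, mean signal and local background). The deposited table of log2 values, 30 columns that each matched their own array best, has column medians of 5.35 to 5.36; no source names its centring, and it served as an alternative only. Probe coordinates carry no stated genome build and are not printed.

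Control spots and outlier-flagged spots were left out, and spots of a probe were averaged. Each array's log2 processed signal was set relative to its 75th percentile. Probes well above background on 3 or more of the 12 arrays were kept (27936 of 55681), with the brightest probe of each gene (20222 genes). limma 3.58.1 in R 4.3.3 was fitted to 4 groups (8 groups on 22 arrays for serum and the difference between treatments), two-sided, with Benjamini-Hochberg adjustment over all genes at 0.05. The scripts were tested on simulated data.

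Named genes were the 10 smallest p values each way among symbols other than clone, position or predicted names, 2 members a list by smallest p, 5 each way for the difference between treatments, and 3 each way for 24 h against 18 h and 1.5 h against 1 h. The comparison, members and lists were chosen with earlier results of these data known. Some genes belong to several lists. Alternatives varied scaling, background, filter, probes, slide, replicate number, spread, times and single arrays.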

Additional observations from a re-analysis of the deposited data

Results flagged for a closer look

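Of 236 sides of 6 arrays tested, 15 held an array whose gap to its nearest neighbour was too large a share of the side's range by Dixon's criterion at 95%; chance gives about 1 in 20. The third 18 h array was lowest in 6 of them: the list means of dendritic cell (1.63, the others 1.96 to 2.13), lymphocyte homing (4.09, the others 4.77 to 5.04) and cold- and stress-linked RNA binding genes (2.84, the others 3.48 to 3.69), and the levels of Art2b (-2.57), Ccr9 (1.46) and Cirbp (2.77). It is also the late array with the lowest median correlation, 0.907. The first 1 h array was lowest in the list means of T cell (3.30) and PPAR and fatty acid oxidation genes (1.07) and in Il20rb (-1.54). The second 1 h array was highest in Ctsg (-0.25) and Mcpt8 (-2.00). The second 1.5 h array was highest in Pecam1 (3.20) and Ager (-1.49) and lowest in Cxcr2 (3.11). The first 18 h array was lowest in Prss34 (-4.43). The part of single mice or preparations in these values was not tested.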

How the results depend on the processing

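The count of genes that passed between late and early oleic acid arrays, 0 as reported, was 1 with scaling on always-detected probes or with quantile normalization (Tardbp in both), 4 with the deposited log2 table, the stricter filter or a trended and robust prior, 5 with slide as a random block, 9 with the intergenic signal as a covariate or with all 30 arrays in the fit, and 1 with 2 groups (Il20rb). It was 0 with normexp, slide as a fixed block, no filter and the mean of probes, and 0 to 2 as arrays were left out, 2 without the third 18 h array (Tardbp and Art2b). With the replicate number as a block it was 0, and the other counts were 0, except 9 for serum. Deviations from the group means correlated from -0.44 to 0.52 between same-numbered arrays (median 0.18, 18 pairs). Between differently numbered arrays the median was -0.05 (36 pairs). Whether the numbers pair the arrays was not tested. The serum count of 8 was 15 on always-detected probes, 61 with quantile normalization, 1 with normexp and 4 with slide as a fixed block, and 1 to 807 as arrays were left out; the highest was without the second 24 h serum array, then 123 without the first 1 h serum array and 16 without the second 1.5 h oleic acid array, and the lowest 1 without the first serum array at 18 h or 24 h. The difference between treatments gave 0 to 1. Signs turned for Ctsg (0.012) and Batf3 (-0.038) without slide 5, an alternative added after seeing the data; for Cd14 (0.045), Treml1 (0.016), Ahsp (-0.12), Isg15 (-0.44) and Rsad2 (-0.60) without the 1.5 h arrays; for Isg15 (-0.073 to 0.99 as arrays were left out) and Rsad2 (-0.097 to 0.87), the lowest of each without the third 18 h array; for Rplp1 (-0.011) without 24 h; for Rps6 (0.018) without 18 h; for Birc5 (0.017) with mean probes; and for Folr2 between 24 h and 18 h (-0.037) with normexp. The cause was not tested. With 3 arrays a group, their number limits the precision; dim genes such as Ptgs2 and Art2b are bounded by the background.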
